A study of Rattus norvegicus with 44 samples.

Results

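Ass1, Asl, Gls2, Hal, Agxt and Aadat code for liver enzymes of the urea cycle and of amino acid breakdown. They were chosen by name, with earlier results of these data known. Shares called among them are set beside those of all genes as a description, and do not test enrichment. Every probe set of the rat array whose only annotated gene symbol is one of the 6 was followed through all 11 groups of arrays. The rule gave 15 probe sets out of 8740, for 6 of the 4736 named genes. Agxt had 6 probe sets, Hal 3, Asl and Aadat 2 each, and Ass1 and Gls2 1 each. All 15 were bright enough to be tested. A gene is read from its probe set with the highest mean signal, and the other probe sets are given beside it.

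Liver breaks down amino acids that are not needed for protein, and the nitrogen set free is made harmless as urea. Argininosuccinate synthase (Ass1) joins citrulline with aspartate, and argininosuccinate lyase (Asl) splits the product into arginine, from which urea is cut, and fumarate. The liver form of glutaminase (Gls2) releases ammonia from glutamine inside the mitochondria. Histidine ammonia-lyase (Hal) starts the breakdown of histidine, and alanine-glyoxylate aminotransferase (Agxt, also known as serine-pyruvate aminotransferase) turns glyoxylate into glycine. Aminoadipate aminotransferase (Aadat) acts on aminoadipate in lysine breakdown and on kynurenine in tryptophan breakdown. Much of urea synthesis and amino acid breakdown takes place in the hepatocytes around the portal vein.

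The series holds 44 arrays of RNA from the left lateral lobe of the liver, 1 per sample, from male Wistar rats aged 8 weeks that received citric acid buffer (the vehicle) or a compound under pharmaceutical development by gavage once a day. The compounds are known here only as R1 and R2. Study 1 had 24 h samples of vehicle (n = 3) and of R1 at 10 (n = 4), 30 (n = 3) and 100 mg/kg/day (n = 3). Study 2 had 336 h samples of vehicle (n = 4) and of R1 at 20 (n = 5) and 100 mg/kg/day (n = 4). Study 3 had 336 h samples of vehicle (n = 5) and of R1 at 30 mg/kg/day (n = 4). Study 4 had 24 h samples of vehicle (n = 4) and of R2 at 300 mg/kg/day (n = 5). Rats were killed a day after their last dose. Arrays of a group are numbered as replicates, and nothing more is said of how they relate, so the p-values measure the spread between these arrays, which may in part be technical. Compound R2 had 1 dose in 1 study, and R1 and R2 share no dose.

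The promoters of 5 of the 6 genes were found in the RefSeq table of the GRCr8 rat assembly, which lists 250 bases before and 50 bases after each start site. Hal had no entry. The Ass1 window lies inside the annotated gene, which spans 35144765 to 35194632. The Aadat window, on the reverse strand at 34555131 to 34555430, lies inside a gene spanning 34520236 to 34566388. For these genes the listed start is not at the annotated outer end. The windows of Ass1, of the upstream start of Gls2 and of Asl are shown because Ass1 and Gls2 were the most alike of the 6 genes across the 44 arrays (r = 0.845), and Asl and Gls2 were far less alike (r = 0.238). All 3 genes lie on the forward strand. Capitals mark matches to 6 short motifs searched on both strands. HNF4 sites were searched by their core CAAAG, cAMP response elements by TGACG, nuclear receptor sites by AGGTCA and C/EBP sites by TTGCNNAA. The GC box was searched as GGGCGG, and the TATA box as TATAAA.

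Ass1, chr3:35149480-35149779: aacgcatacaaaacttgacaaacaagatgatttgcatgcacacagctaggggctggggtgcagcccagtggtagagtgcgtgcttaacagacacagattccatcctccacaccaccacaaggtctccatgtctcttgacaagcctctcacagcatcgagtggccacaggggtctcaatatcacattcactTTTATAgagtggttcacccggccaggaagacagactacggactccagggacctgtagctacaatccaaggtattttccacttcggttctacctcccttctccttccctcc
Gls2, chr7:1201629-1201928: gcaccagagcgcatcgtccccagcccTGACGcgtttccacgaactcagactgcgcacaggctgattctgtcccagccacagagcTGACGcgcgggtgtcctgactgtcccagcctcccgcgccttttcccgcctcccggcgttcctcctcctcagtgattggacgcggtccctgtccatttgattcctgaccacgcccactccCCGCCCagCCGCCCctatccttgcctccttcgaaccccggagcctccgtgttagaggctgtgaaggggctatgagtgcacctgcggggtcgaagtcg
Asl, chr12:32295658-32295957: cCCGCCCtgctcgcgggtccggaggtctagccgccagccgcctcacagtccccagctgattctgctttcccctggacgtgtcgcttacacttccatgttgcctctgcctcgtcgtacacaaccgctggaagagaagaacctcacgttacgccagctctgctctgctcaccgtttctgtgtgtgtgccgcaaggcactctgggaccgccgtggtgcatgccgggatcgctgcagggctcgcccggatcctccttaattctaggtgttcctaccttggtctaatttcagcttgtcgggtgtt

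The Ass1 window held TATAAA on the reverse strand, 60 bases before the start. The Gls2 window held TGACG 224 and 166 bases before the start, and the reverse complement of GGGCGG 47 and 39 bases before it. The Asl window held the reverse complement of GGGCGG 249 bases before the start. The 3 windows shared no motif other than GGGCGG in Gls2 and Asl. Of the 33469 promoter windows in the table, 53.8% held CAAAG, 33.1% GGGCGG, 21.2% TGACG, 16.2% AGGTCA, 14.2% TATAAA and 10.6% TTGCNNAA. The Aadat window held AGGTCA 168 bases before the start and the reverse complement of CAAAG 77 bases before it. The first of 2 Agxt windows held the reverse complement of CAAAG 76 bases before the start, and the other held none of the 6 motifs. The second Gls2 window held CAAAG 11 bases after its start. These are matches of letters and say nothing about which factors bind.

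Signals are the deposited intensities, in which every array has the same sorted values, so a level is relative to the rest of the array. Within groups, arrays correlated at 0.924 to 0.974 over the tested probe sets, with the lowest value among the R2 arrays, where replicates 1 and 2 stood apart from the others. The vehicle groups of studies 2 and 3, both at 336 h, differed in 17.8% of the tested probe sets, and those of studies 1 and 4, both at 24 h, in 5.64%. The summed signal of 7 hepatocyte markers ranged from 43069 to 58882 over all arrays. In whole liver, fewer hepatocytes and less RNA per hepatocyte cannot be told apart.

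Wherever a probe set of these genes passed the test in a dose comparison, it was lower than in the vehicle livers of the same study. The test was limma's moderated test, 2-sided, with 1 fit over all arrays and a Benjamini-Hochberg adjusted p under 0.05 over 6361 probe sets. At 24 h, limma called none of the 15 probe sets with R1 at 10 mg/kg/day, against 0.204% of all tested probe sets called lower (weighting arrays by quality called 1). At 30 mg/kg/day 2 of 15 fell (all probe sets 0.252%), and at 100 mg/kg/day 3 of 15 (all 2.44%). At 336 h, 7 of 15 fell with R1 at 20 mg/kg/day (all 1.89%), 10 of 15 at 100 mg/kg/day (all 5.2%) and 11 of 15 with 30 mg/kg/day in study 3 (all 6.01%). With R2 at 300 mg/kg/day 8 of 15 fell (all 7.88%). When R2 replicates 1 and 2, which stood apart, were left out, 7 of 15 fell, but not the same set. The brightest probe sets of Agxt (adjusted p = 0.308) and Aadat (0.0657) then lost their calls. M35270complete_seq_r_at of Agxt gained a call (0.0433). The count of 7 at 20 mg/kg/day was 4 without vehicle replicate 2 and 3 without vehicle replicate 4, and the count of 2 at 30 mg/kg/day and 24 h was 0 without vehicle replicate 1 and 1 without vehicle replicate 2 or 3 or dosed replicate 1 or 2. Probe sets of 1 gene are not separate observations, and Agxt alone holds 6 of the 15, so counts by gene follow.

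By gene, on the brightest probe set, the number that fell after 24 h of R1 was 0 of 6 at 10 mg/kg/day, 1 at 30 and 3 at 100. It was 4 at 20 and 4 at 100 in study 2, 5 at 30 in study 3, and 5 with R2. Among all 3696 genes tested the shares called lower were 0.271%, 0.189%, 2.79%, 1.76%, 5.01%, 5.93% and 8.79% in the same order. The median log2 difference of the 6 genes was -0.24, -0.51, -0.72, -0.80, -1.09, -1.31 and -1.04, while the median over all genes tested lay between -0.07 and 0.00 in these comparisons. Several doses share a vehicle group, so these comparisons are not independent of each other. With the probe sets of a gene averaged, Hal did not pass at 100 mg/kg/day after 24 h (adjusted p = 0.815) or at 20 mg/kg/day (0.160). Averaged in this way, Agxt did not pass with R2 (0.283). Without R2 replicates 1 and 2, the brightest probe sets of Agxt and Aadat did not pass with R2.

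**Figure D1:**
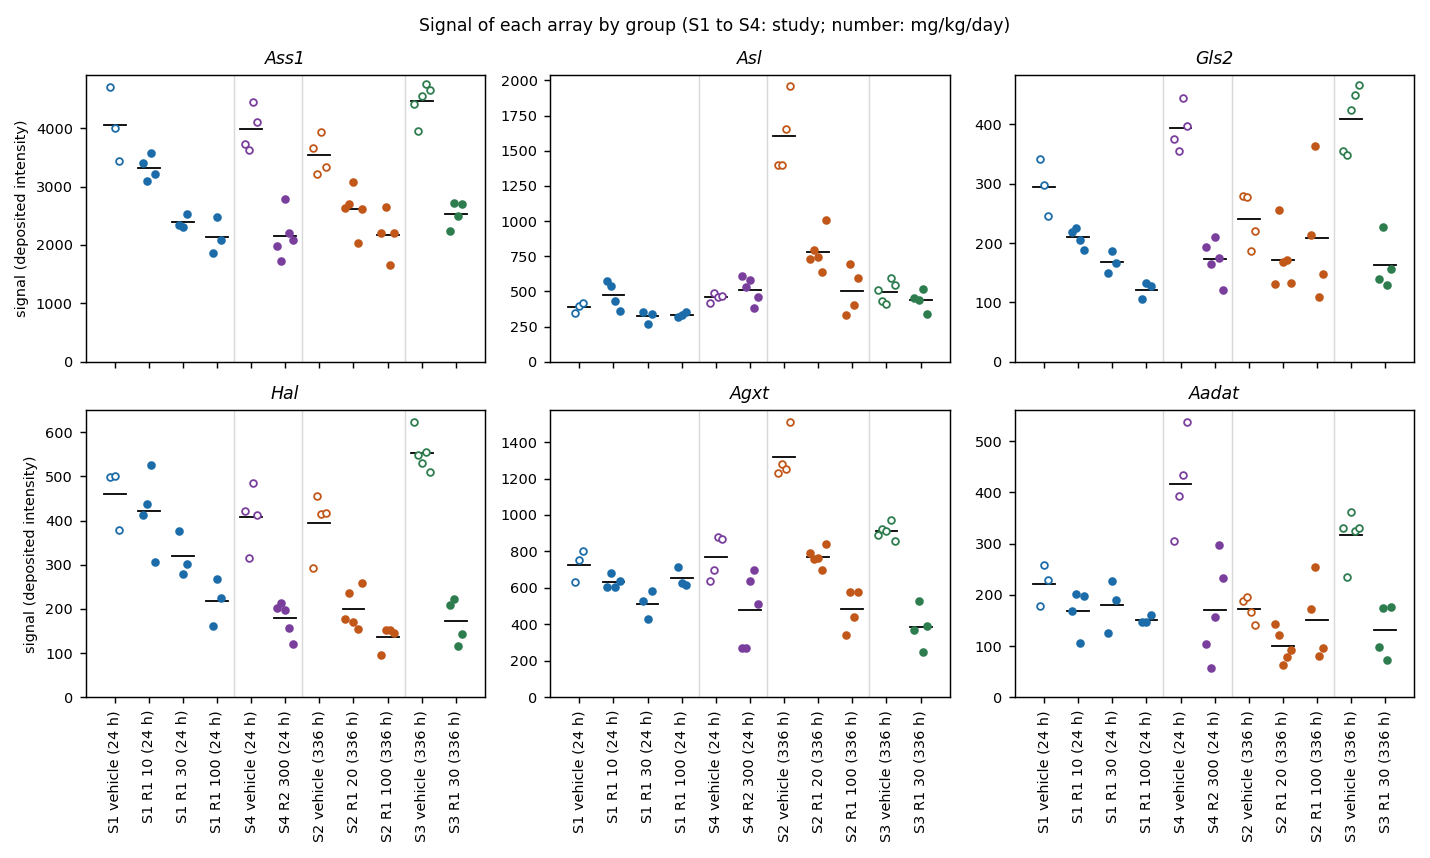
Deposited signal (linear axis from 0) of the brightest probe set of each of the 6 genes on each of the 44 arrays; open circles are vehicle, filled circles are dosed livers, short lines are group means, and colours mark the 4 studies. Asl was 1397 to 1958 in the vehicle livers of study 2 and below 700 in every other vehicle array, while Ass1 vehicle arrays lay between 3212 and 4766 in all studies.

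Ass1, the synthase of the urea cycle, fell with every dose tested except R1 at 10 mg/kg/day. Group means were 59.1% and 52.9% of the vehicle mean at 30 and 100 mg/kg/day after 24 h, and 73.9% to 56.7% at 336 h. It was read from 1 probe set, X12459_at. In study 1 its signal was 4709, 4005 and 3435 in vehicle livers and 3412, 3098, 3571 and 3212 at 10 mg/kg/day. It was 2343, 2303 and 2539 at 30 and 1866, 2482 and 2077 at 100 mg/kg/day. The 10 mg/kg/day arrays overlapped those of vehicle, and the other doses lay wholly below it. The log2 difference from vehicle, on the scale of log2(signal + 2.89) used throughout, was -0.28 ± 0.15 (SE, adjusted p = 0.56), -0.75 ± 0.16 (adjusted p = 0.00358) and -0.92 ± 0.16 (adjusted p = 1.0e-04). The call at 30 mg/kg/day was lost without vehicle replicate 1, the highest array (-0.63, adjusted p = 0.0814). The step from 10 to 100 mg/kg/day was -0.64 ± 0.15 (adjusted p = 0.00786), and it too was lost without replicate 1 of the 100 mg/kg/day arrays (-0.55, adjusted p = 0.0900).

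At 336 h, study 2 gave Ass1 signals of 3661, 3212, 3934 and 3339 in vehicle livers. They were 2639, 2695, 3078, 2029 and 2621 with R1 at 20 mg/kg/day, and 2210.1, 2653, 1655 and 2197 at 100 mg/kg/day. No dosed array reached the lowest vehicle array. The difference was -0.44 ± 0.13 (adjusted p = 0.0413) at 20 and -0.71 ± 0.14 (adjusted p = 2.4e-04) at 100 mg/kg/day. The call at 20 mg/kg/day was close to the threshold: it was lost on leaving out any of the 4 vehicle replicates or of dosed replicates 1, 2, 4 and 5 (adjusted p 0.0505 to 0.163) and with study 2 fitted alone (adjusted p = 0.149). This call was also lost with no filter on dim probe sets (0.0644) and with cyclic loess scaling (0.0606). The fit without the mean-variance trend (0.0830) and that with the replicate number as a block (0.0965) lost it too. In study 3 the vehicle arrays read 4409, 3958, 4561, 4766 and 4663 and those at 30 mg/kg/day 2241, 2715, 2493 and 2695, again with no overlap (-0.82 ± 0.13, adjusted p = 1.4e-05). With R2, Ass1 was 1984, 1730.4, 2790.3, 2197 and 2077 against 3723, 3628, 4455 and 4114 in vehicle livers (-0.90 ± 0.13, adjusted p = 2.1e-06). The effect of 100 mg/kg/day of R1 on Ass1 at 336 h less that at 24 h was 0.20 ± 0.21 (adjusted p = 0.717), and of 30 mg/kg/day -0.07 ± 0.21 (adjusted p = 0.944), so neither difference passed the test.

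Asl, the next enzyme of the cycle, behaved unlike Ass1. It fell in study 2 and passed the test in no other dose comparison. In that study the vehicle livers themselves stood high. Probe set D13978_s_at read 1397, 1397, 1655 and 1958 in the study 2 vehicle livers, 731, 795, 744, 636 and 1005 with R1 at 20 mg/kg/day, and 334, 691, 404 and 593 at 100 mg/kg/day. The 3 groups descended with dose, with vehicle above both doses and the doses overlapping each other. The difference was -1.03 ± 0.18 (adjusted p = 7.4e-05) at 20 and -1.70 ± 0.19 (adjusted p = 1.8e-09) at 100 mg/kg/day, the latter to 31.6% of the vehicle mean. From 20 to 100 mg/kg/day it was -0.67 ± 0.18 (adjusted p = 0.0186), a call lost without replicate 5 at 20 mg/kg/day or replicates 1 or 3 at 100 mg/kg/day (adjusted p 0.0808 to 0.169) and with study 2 alone (0.106). With the replicate number as a block the call was lost as well (0.124).

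At 100 mg/kg/day the study 2 livers had Asl levels within the range of vehicle livers elsewhere or close to it. Vehicle signals were 349, 398 and 419 in study 1, 511, 429, 407, 599 and 548 in study 3 and 415, 486, 459.7 and 465 in study 4. None came near the lowest vehicle array of study 2. The vehicle of study 3 was -1.68 ± 0.18 (adjusted p = 1.2e-09) against that of study 2, the same time point, and 31.1% of its mean. With the lower vehicles, Asl was 452, 436, 517 and 336 in the dosed livers of study 3 (-0.20 ± 0.18, adjusted p = 0.604) and 608, 529, 579, 384 and 462 with R2 (0.15 ± 0.18, adjusted p = 0.644). In study 1 it was 576, 535, 428 and 359 at 10, 352, 271 and 342 at 30 and 318, 329.6 and 356 at 100 mg/kg/day, with differences of 0.27, -0.28 and -0.21 (adjusted p 0.697 to 0.737). All of these groups overlapped their vehicle.

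The effect of 100 mg/kg/day on Asl at 336 h less that at 24 h was -1.49 ± 0.29 (adjusted p = 5.3e-04), a difference that holds the high study 2 vehicle. The other Asl probe set, AB016536_s_at, gave the same order with smaller steps: -1.26 ± 0.19 (adjusted p = 2.9e-06) at 100 mg/kg/day and -0.56 ± 0.18 (adjusted p = 0.0677) at 20 mg/kg/day in study 2, and -1.49 ± 0.18 (adjusted p = 4.0e-08) between the vehicles. Across the 44 arrays, each centred on the mean of its study, both probe sets correlated at r = 0.865.

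Gls2, the glutaminase that feeds ammonia to the urea cycle, fell with R1 at 100 mg/kg/day after 24 h, at 30 mg/kg/day after 336 h and with R2, to 41.2%, 40% and 43.9% of the vehicle mean, but did not pass in study 2. Its probe set J05499_at read 342, 298 and 245 in study 1 vehicle livers, 219, 226, 206 and 188 at 10, 149, 186 and 166 at 30 and 105, 132 and 128 at 100 mg/kg/day. Each dose lay wholly below vehicle, and the means descended with dose. The differences were -0.48 ± 0.25 (adjusted p = 0.526), -0.80 ± 0.27 (adjusted p = 0.142) and -1.25 ± 0.27 (adjusted p = 0.00136), of which only that at 100 mg/kg/day passed. With study 1 fitted alone, 30 mg/kg/day passed as well (adjusted p = 0.0282). In study 3 the vehicle arrays were 355, 349, 424, 449.7 and 466 and the dosed arrays 139.9, 227, 129 and 157, well apart (-1.33 ± 0.22, adjusted p = 1.7e-05). With R2 Gls2 was 194, 164, 209.8, 175 and 120.5 against 375, 355, 445 and 397, also apart (-1.19 ± 0.22, adjusted p = 8.5e-05).

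Study 2 gave Gls2 signals of 279.7, 277, 186 and 221 in vehicle livers, 131, 256, 168, 171 and 133 at 20 mg/kg/day and 213, 364, 109 and 148 at 100 mg/kg/day. Replicate 2 was the highest dosed array at both doses, within the vehicle range at 20 and above it at 100 mg/kg/day, and the groups overlapped. The differences were -0.51 ± 0.22 (adjusted p = 0.238) and -0.33 ± 0.23 (adjusted p = 0.468). Without replicate 2 at 100 mg/kg/day, the array of 364, the difference became -0.64 and passed (adjusted p = 0.0483). Gls2 was higher in the vehicle of study 3 than in that of study 2, by 0.77 ± 0.22 (adjusted p = 0.0103); this call was lost without study 2 vehicle replicate 3 (0.65, adjusted p = 0.0577).

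Hal, which takes the amino group off histidine as ammonia, fell to 31.2% of the vehicle mean at 30 mg/kg/day and 34.5% at 100 mg/kg/day after 336 h. It also fell at 20 mg/kg/day after 336 h (50.5%), at 100 mg/kg/day after 24 h (47.5%) and with R2 (43.7%). Probe set M58308_at read 293, 457, 414 and 417 in study 2 vehicle livers, 178, 235, 171, 154 and 259.7 at 20 mg/kg/day and 96.4, 151, 153 and 145 at 100 mg/kg/day. All 3 groups lay apart, although the lowest array at 20 mg/kg/day nearly met the highest at 100 mg/kg/day. The differences were -0.98 ± 0.20 (adjusted p = 1.0e-03) and -1.52 ± 0.21 (adjusted p = 4.6e-07), and between the doses -0.53 ± 0.20 (adjusted p = 0.167). In study 3 Hal was 623, 549, 529, 554 and 509.6 in vehicle livers and 209.8, 222, 115 and 144 at 30 mg/kg/day (-1.71 ± 0.20, adjusted p = 1.9e-08). Dosed arrays there all lay below vehicle, by a wide gap.

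After 24 h the Hal signal was 498, 501 and 379 in study 1 vehicle livers, 414, 437, 526 and 306 at 10, 375, 280.1 and 302 at 30 and 161, 267 and 226 at 100 mg/kg/day. The 10 mg/kg/day arrays spanned the vehicle range, and those at 30 and 100 lay below it. The differences were -0.14 ± 0.23 (adjusted p = 0.915), -0.52 ± 0.24 (adjusted p = 0.423) and -1.08 ± 0.24 (adjusted p = 0.0027). From 10 to 100 mg/kg/day the step was -0.94 ± 0.23 (adjusted p = 0.00983), lost without replicate 1 of the 100 mg/kg/day arrays, the lowest (-0.74, adjusted p = 0.142). R2 gave 203, 213, 197, 158 and 121 against 421, 315, 484 and 412 in vehicle livers (-1.19 ± 0.20, adjusted p = 2.1e-05), with no overlap. The effect of 30 mg/kg/day on Hal at 336 h less that at 24 h was -1.19 ± 0.32, just short of the threshold (adjusted p = 0.0533), and it passed with a stricter filter (0.0396), with cyclic loess scaling (0.0486) and without replicate 1 or 2 of the 30 mg/kg/day arrays of study 3 (0.0386 and 0.0267). Averaged over the Hal probe sets, this effect difference was -1.51 and passed as well (adjusted p = 0.0241).

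A dimmer Hal probe set, AB002393_g_at, changed with R1 at 30 mg/kg/day in study 3 by -2.09 ± 0.32 (adjusted p = 4.2e-06), from 113 to 25.6 in group means. At 100 mg/kg/day in study 2 it changed by -1.67 ± 0.33 (adjusted p = 3.1e-04) and with R2 by -1.18 ± 0.32 (adjusted p = 0.00714). At 20 mg/kg/day in study 2 it was -0.99 ± 0.32 (adjusted p = 0.0652), of the same size as the brightest probe set, and it passed with the stricter filter (0.0444) and with weighted arrays (0.00674). At 24 h of R1 at 100 mg/kg/day it was -0.39 ± 0.39 (adjusted p = 0.691). The third Hal probe set, AB002393_at, had group means of 7.95 to 19.9, near the filter level of 9.17, and passed in none of the comparisons. Its correlation with M58308_at was 0.179, against 0.819 for AB002393_g_at. When the Hal probe sets were averaged, the 24 h difference at 100 mg/kg/day was -0.17 (adjusted p = 0.815) and that at 20 mg/kg/day -0.60 (0.160), and the step from 10 to 100 mg/kg/day at 24 h was -0.50 (0.353), so that these 3 calls were lost. Averaging also added calls. The effect of 30 mg/kg/day at 336 h less that at 24 h passed (-1.51, adjusted p = 0.0241). So did the vehicle of study 3 against that of study 2 (0.71, adjusted p = 0.0293).

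Agxt, the glyoxylate aminotransferase, fell with R1 at 336 h in both studies and, on its brightest probe set, with R2, but did not pass after 24 h of R1. Probe set X06357cds_s_at read 1229, 1279, 1254 and 1512 in study 2 vehicle livers, 793, 758, 765, 701 and 839 at 20 mg/kg/day and 343, 579, 439 and 577 at 100 mg/kg/day. The 3 groups lay apart, in order of dose. The differences were -0.77 ± 0.20 (adjusted p = 0.017) and -1.47 ± 0.21 (adjusted p = 1.3e-06), the latter leaving 36.8% of the vehicle mean. The call at 20 mg/kg/day was lost without vehicle replicate 4, the highest array (-0.70, adjusted p = 0.0752). From 20 to 100 mg/kg/day the step was -0.70 ± 0.20 (adjusted p = 0.038), a call lost on leaving out any of replicates 1, 2, 3 and 5 at 20 mg/kg/day or 1 and 3 at 100 mg/kg/day (adjusted p 0.0619 to 0.216) and when all Agxt probe sets were averaged (-0.49, adjusted p = 0.0980). This step also lost its call with no filter on dim probe sets (0.0507) and without the mean-variance trend (0.0619).

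In study 3 Agxt was 889, 923, 912, 974 and 856 in vehicle livers and 367, 526, 249 and 391 at 30 mg/kg/day, with no overlap (-1.29 ± 0.20, adjusted p = 8.4e-06). In study 1 it was 631, 751 and 801 in vehicle livers, 604, 679.9, 602 and 637 at 10, 529, 427 and 585 at 30 and 718, 629 and 616 at 100 mg/kg/day. The middle dose was the lowest group there. The differences were -0.20 ± 0.23, -0.50 ± 0.25 and -0.15 ± 0.25 (adjusted p 0.465 to 0.848). At 100 mg/kg/day the difference from vehicle at 336 h less that at 24 h was -1.32 ± 0.33 (adjusted p = 0.00909). This compares studies 1 and 2 with each other, each against its own vehicle, and the study 2 vehicle was the highest Agxt group of all.

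With R2, Agxt depended on the probe set and on the arrays. X06357cds_s_at read 273, 269, 639, 699 and 512 against 640.1, 697, 881 and 870.4 in vehicle livers (-0.79 ± 0.20, adjusted p = 0.00487). Replicates 1 and 2 were the lowest, replicate 4 lay within the vehicle range, and replicate 3 lay just below it. Without these 2 arrays, a choice made after seeing the data, the difference was -0.32 (adjusted p = 0.308), and with study 4 fitted alone the adjusted p was 0.105. D13667cds_s_at read 168, 209, 47.6, 60.1 and 44.3 against 76.9, 62.4, 61.3 and 72.7 (0.32 ± 0.33, adjusted p = 0.59), so that here replicates 1 and 2 were the highest R2 arrays. M35270complete_seq_i_at read 268, 239, 289, 392 and 412 against 433, 521, 553 and 699, with no overlap (-0.79 ± 0.18, adjusted p = 9.5e-04). E01050cds_g_at gave 0.01 ± 0.21 (adjusted p = 0.984). Averaged over its 6 probe sets, Agxt with R2 was -0.27 (adjusted p = 0.283).

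At 336 h of R1 most Agxt probe sets passed. At 100 mg/kg/day in study 2 the 5 that passed lay between -1.53 and -0.98, and M35270complete_seq_r_at did not pass (-0.49 ± 0.33, adjusted p = 0.446). At 30 mg/kg/day in study 3 the 5 that passed lay between -1.47 and -0.83, and E01050cds_at did not pass (-0.10 ± 0.23, adjusted p = 0.879). In study 1 only M35270complete_seq_i_at at 30 mg/kg/day passed (-0.80 ± 0.21, adjusted p = 0.0365), a call lost without vehicle replicate 1, 2 or 3 or dosed replicate 1 or 2 (adjusted p 0.0553 to 0.219). It was also lost with study 1 fitted alone (0.0974), without the mean-variance trend (0.0627) and with the replicate number as a block (0.0549). Correlations of the other probe sets with the brightest ranged from 0.343 to 0.845.

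**Figure D2:**
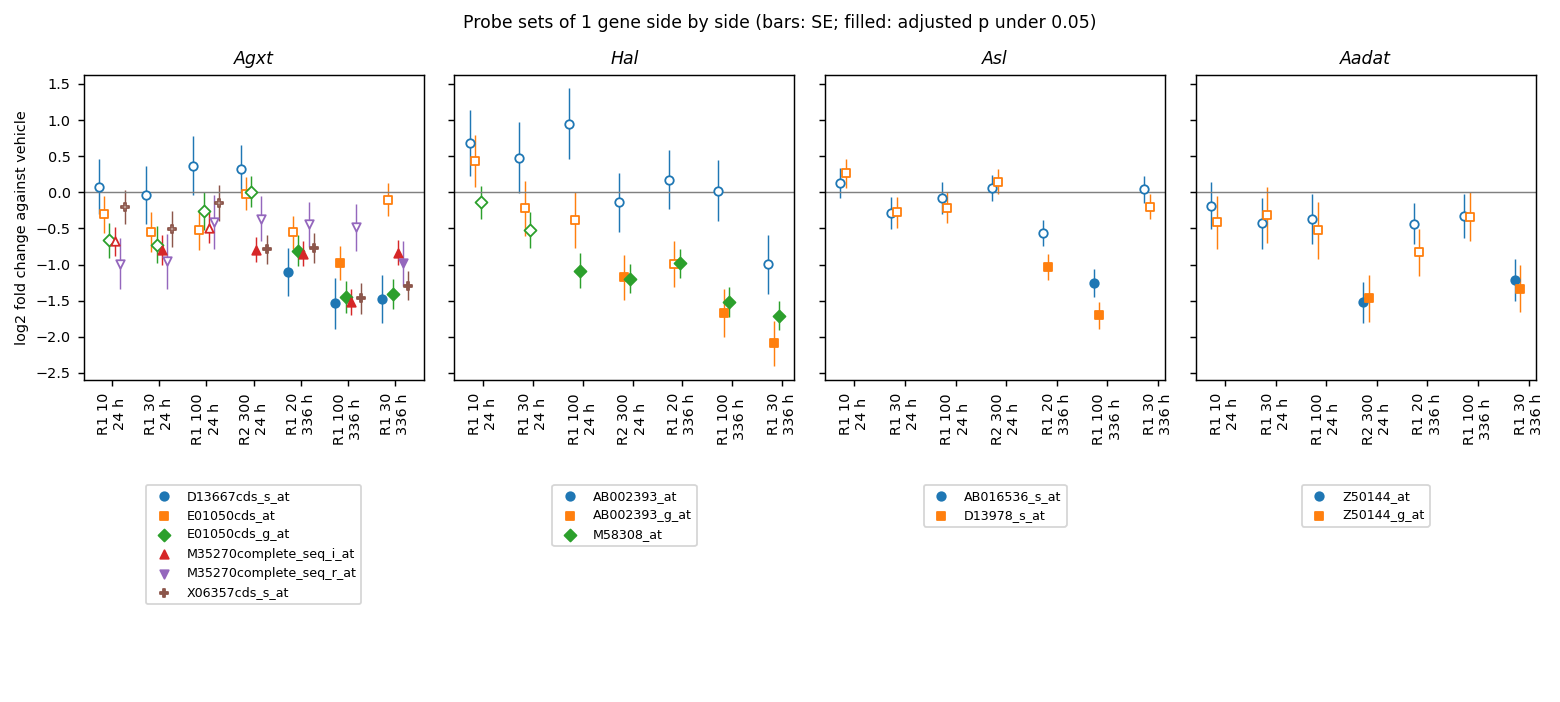
Log2 difference from vehicle (y axis, bars are SE) for every probe set of Agxt, Hal, Asl and Aadat in the 7 dose comparisons (x axis); filled symbols passed the test. The 6 probe sets of Agxt ran from -0.79 to 0.32 with R2 and from -1.47 to -0.10 at 30 mg/kg/day in study 3, and the dim Hal probe set AB002393_at passed in none.

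Aadat, which acts in lysine and tryptophan breakdown, fell with R1 at 30 mg/kg/day in study 3 and with R2, and passed in no other dose comparison. Probe set Z50144_g_at read 329.6, 234, 362, 324 and 331 in study 3 vehicle livers and 98.9, 174, 73.3 and 177 at 30 mg/kg/day, with no overlap (-1.33 ± 0.32, adjusted p = 0.00333). With R2 it read 104, 57.6, 157, 298 and 233 against 306, 393, 435 and 537 (-1.47 ± 0.32, adjusted p = 8.8e-04). Replicates 1 and 2 were the lowest R2 arrays, and replicate 4 came close to the lowest vehicle array. Without replicates 1 and 2 the difference was -0.88 (adjusted p = 0.0657). The other probe set, Z50144_at, gave -1.21 ± 0.29 (adjusted p = 0.00276) and -1.52 ± 0.29 (adjusted p = 1.2e-04) in the same comparisons, and both probe sets correlated at r = 0.916.

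In study 2 the Aadat signal was 188, 196, 167 and 142 in vehicle livers, 144, 121, 62.3, 77.8 and 92.6 at 20 mg/kg/day and 172, 254, 80.3 and 95.4 at 100 mg/kg/day. The higher dose spread over more than the vehicle range. The differences were -0.83 ± 0.32 (adjusted p = 0.158) and -0.34 ± 0.34 (adjusted p = 0.674). In study 1 it was 179, 258 and 229 in vehicle livers, 169, 201, 106 and 199 at 10, 126, 226 and 189.5 at 30 and 146, 148 and 161 at 100 mg/kg/day, with differences of -0.42 ± 0.37, -0.32 ± 0.39 and -0.53 ± 0.39 (adjusted p 0.558 to 0.863). Aadat had the widest standard errors of the 6 genes, 0.32 to 0.39, so a change of the size seen for Ass1 could be missed.

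**Figure D3:**
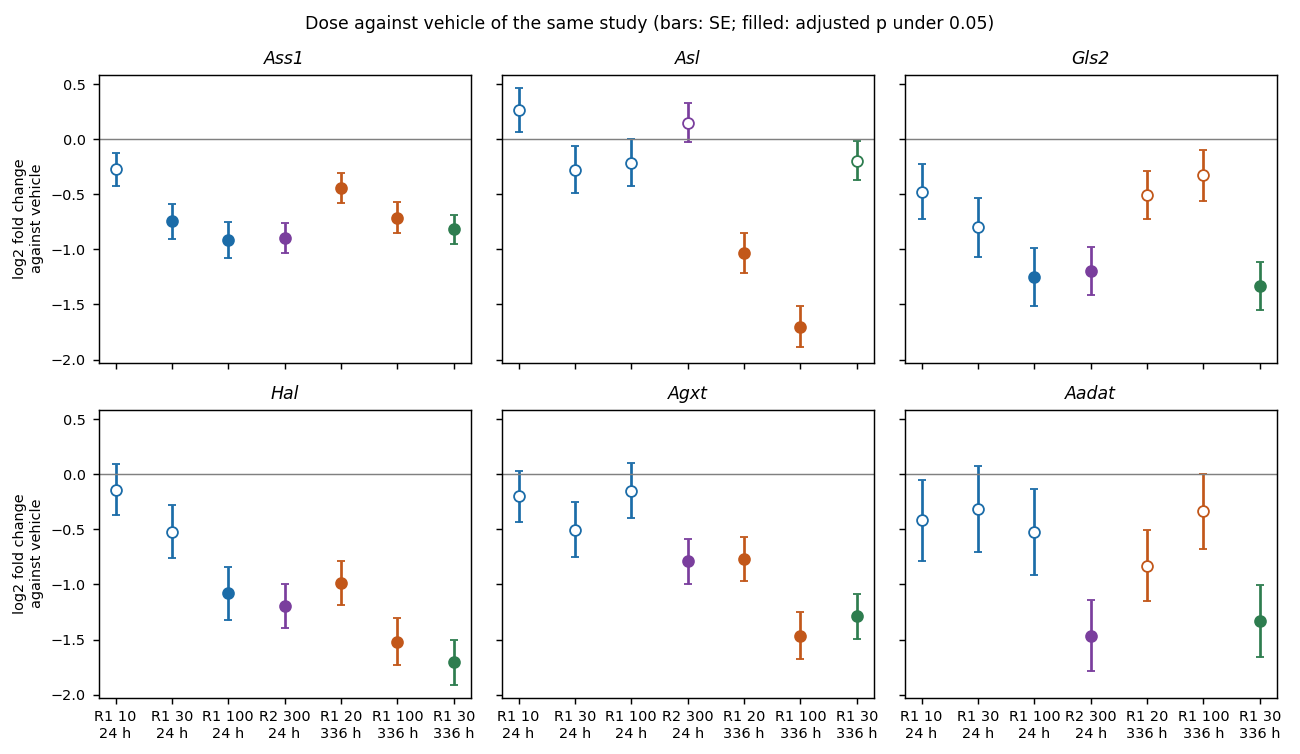
Log2 difference from the vehicle of the same study (y axis, bars are SE) for the brightest probe set of each gene in the 7 dose comparisons (x axis); filled circles passed the test. Ass1 passed in all but R1 at 10 mg/kg/day, Asl only in study 2, and Aadat only at 30 mg/kg/day and 336 h and with R2.

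The values for R1 at 100 mg/kg/day (study 1) and R2 at 300 mg/kg/day (study 4), both after 24 h, can be set side by side. The log2 difference was -0.92 ± 0.16 and -0.90 ± 0.13 for Ass1, -1.25 ± 0.27 and -1.19 ± 0.22 for Gls2, and -1.08 ± 0.24 and -1.19 ± 0.20 for Hal. It was -0.15 ± 0.25 and -0.79 ± 0.20 for Agxt, -0.53 ± 0.39 and -1.47 ± 0.32 for Aadat, and -0.21 ± 0.22 and 0.15 ± 0.18 for Asl. Averaged over all probe sets of the gene, Agxt was -0.24 ± 0.20 and -0.27 ± 0.16. Without R2 replicates 1 and 2 the R2 value was -0.32 for the brightest Agxt probe set and -0.88 for Aadat. Doses and studies differ, so no test was made between the compounds.

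Between doses of R1, 2 of the 15 probe sets were lower at 100 than at 10 mg/kg/day after 24 h (1.67% of all), those of Ass1 and Hal. Averaged over the Hal probe sets, the Hal step was -0.50 and did not pass (adjusted p = 0.353). The Gls2 step was -0.77 ± 0.25 (adjusted p = 0.0702) and passed with study 1 alone (adjusted p = 0.0180). At 336 h, 4 of 15 were lower at 100 than at 20 mg/kg/day (1.98% of all), both of Asl and 2 of Agxt. The 2 calls were lost without replicate 1 at 100 mg/kg/day, and the 4 became 1 without replicate 5 at 20 or replicate 1 at 100 mg/kg/day and 0 without replicate 3 at 100 mg/kg/day. For the effect of 100 mg/kg/day at 336 h less that at 24 h, 6 of 15 passed, all more strongly negative at 336 h (3.13% of all), and they were again probe sets of Asl (2) and Agxt (4). The 6 became 4 without vehicle replicate 1 or 3 of study 1 or dosed replicate 1 of study 2, and 3 without replicate 1 of the 24 h dosed arrays; the brightest probe sets of Asl and Agxt passed in each case. The Gls2 value had the opposite sign, 0.92 ± 0.35 (adjusted p = 0.137), and passed without replicate 3 of the study 2 arrays at 100 mg/kg/day (1.18, adjusted p = 0.0282). For 30 mg/kg/day limma called none of the 15 at an adjusted p under 0.05 (0.456% of all were lower).

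Between the 336 h vehicles, study 3 was lower than study 2 in 3 of 15 probe sets (9.29% of all), both of Asl and D13667cds_s_at of Agxt, and higher in 2 (8.55% of all), those of Gls2 and AB002393_g_at of Hal. Ass1 (0.34 ± 0.13, adjusted p = 0.0713), Hal (0.50 ± 0.20, adjusted p = 0.0809), Agxt (-0.53 ± 0.20, adjusted p = 0.0661) and Aadat (0.85 ± 0.32, adjusted p = 0.0605) did not pass on their brightest probe sets, but all 4 did so with arrays weighted by quality (adjusted p 0.00883 to 0.0193), in the same direction. Averaged over its probe sets, Hal was 0.71 and passed (adjusted p = 0.0293). Between the 24 h vehicles of studies 4 and 1, none of the 15 passed (5.64% of all were called in either direction); Aadat was 0.89 ± 0.37 (adjusted p = 0.154). Study and vehicle group cannot be told apart here.

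The order of the groups by Ass1 level put the 4 vehicles on top, 4471, 4049.7, 3980.0 and 3536 in mean signal, followed by R1 at 10 mg/kg/day at 3323. A gap without overlap separated these from all other doses, which lay between 2613 and 2142 and overlapped each neighbour. For Hal the study 3 vehicle (553 ± 43.1 (SD, n = 5)) stood above the study 1 vehicle (459 ± 69.7 (SD, n = 3)), and R1 at 30 mg/kg/day after 24 h (319 ± 49.9 (SD, n = 3)) stood above the group at 100 mg/kg/day (218 ± 53.3 (SD, n = 3)). For Asl the study 2 vehicle (1602 ± 267 (SD, n = 4)) and the 20 mg/kg/day group of that study (782 ± 137 (SD, n = 5)) came first. The vehicle lay apart from all other groups, while the 20 mg/kg/day group lay apart from the next group, R2, but overlapped the 100 mg/kg/day group of its study. The other 9 groups, 513 down to 322, overlapped their neighbours. Agxt was highest in the study 2 vehicle (1318 ± 130.4 (SD, n = 4)), apart from the study 3 vehicle (911 ± 43.6 (SD, n = 5)). The Gls2 vehicles of studies 3 and 4 (409 and 393) stood above that of study 1 (295). For Aadat every group overlapped the next, from 417 in the study 4 vehicle down to 99.5 at 20 mg/kg/day.

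Over the 44 arrays, each centred on the mean of its study, Ass1 followed Gls2 (r = 0.845) and Hal (0.833) more closely than Agxt (0.751), Aadat (0.665) or Asl (0.452). Asl was the least like Ass1, Gls2 (0.238), Agxt (0.536) and Aadat (0.069), while Hal was less like Aadat (0.513) than like Asl (0.566). These correlations describe arrays that share doses, vehicles and scaling, so they are given without a test. By the same measure the genes most like Ass1 were Cps1 (0.851), the entry enzyme of the urea cycle, Cdo1 (0.850), which oxidises cysteine, and Gnmt (0.845), which methylates glycine. Most like Gls2 were Gchfr (0.876), Gnmt (0.862) and Cth (0.826), and most like Hal were Pc (0.867), the pyruvate carboxylase, Aqp9 (0.863), a glycerol and urea channel, and Inhbe (0.861), an inhibin subunit. Agxt was most like Kynu (0.881), a kynurenine-splitting enzyme, Inhbe (0.803) and Lipc (0.794). Aadat was most like Fn1 (0.832), Selenop (0.823) and Tmem47 (0.802). Asl was most like Ehhadh (0.792), a peroxisomal enzyme of fatty acid oxidation, Cyp17a1 (0.717) and Itih3 (0.677), none of which is among the genes nearest to the others.

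**Figure D4:**
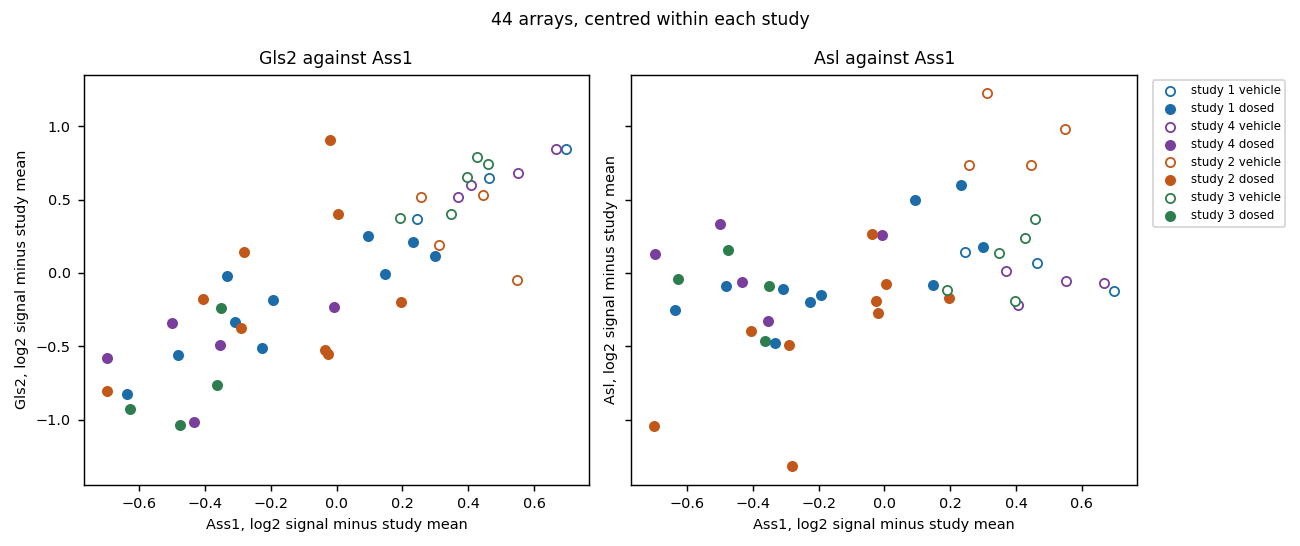
Log2 signal of Gls2 (left) and Asl (right) against that of Ass1 on 44 arrays, each centred on the mean of its study; open circles are vehicle and filled circles dosed livers, coloured by study. Gls2 follows Ass1 (r = 0.845), while for Asl the highest and lowest points are study 2 arrays (r = 0.452 over all arrays).

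The remaining genes of the urea cycle and of amino acid breakdown were read from 9 lists. Of 75 listed genes 49 were on the array and 48 were tested. After 24 h of R1 the number called lower was 1 of 48 at 10, 1 at 30 and 8 at 100 mg/kg/day. It was 2 at 20 and 6 at 100 mg/kg/day in study 2, 16 at 30 mg/kg/day in study 3, and 25 with R2. None was called higher with R1 at 24 h or at 20 mg/kg/day, and 3, 3 and 2 were in the last 3 comparisons, where 4.95%, 4.98% and 6.63% of all genes were called higher. The shares called lower among the 48 were 2.08%, 2.08%, 16.67%, 4.17%, 12.5%, 33.33% and 52.08%, to be read against the shares of all genes given above. The lists too were chosen with earlier results of these data known, so this does not test enrichment. Their median log2 difference was -0.05, -0.26, -0.37, -0.18, -0.02, -0.37 and -0.64. The 1 gene at 10 mg/kg/day was lost without vehicle replicate 1 or 2 or dosed replicate 1, 2 or 3, and the 1 at 30 mg/kg/day without vehicle replicate 1 or 2. The 2 at 20 mg/kg/day became 1 without vehicle replicate 1, 2 or 3 or dosed replicate 1, 3, 4 or 5. The 8 at 100 mg/kg/day and 24 h became 3 without dosed replicate 1, 4 without vehicle replicate 1 and 5 without dosed replicate 3. The 25 with R2 became 17 without replicates 1 and 2.

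Of the other urea cycle genes 3 of 6 were tested. Cps1 fell with R2 (-1.68 ± 0.22, adjusted p = 1.3e-07), as did Otc (-1.56 ± 0.30, adjusted p = 1.3e-04), which makes citrulline. With R1, Cps1 fell at 100 mg/kg/day after 24 h (-1.05 ± 0.27, adjusted p = 0.00869) and at 30 mg/kg/day in study 3 (-0.83 ± 0.22, adjusted p = 0.00687). The first call was lost without vehicle replicate 1 or dosed replicate 1 (adjusted p up to 0.0854), and the second without dosed replicate 3 (0.0501). Cps1 at 100 mg/kg/day in study 2 (-0.72 ± 0.23, adjusted p = 0.035) and Otc at 30 mg/kg/day in study 3 (-0.88 ± 0.30, adjusted p = 0.0434) passed, but the former was lost without vehicle replicate 1, 2 or 3 or dosed replicate 1, 3 or 4 (adjusted p up to 0.179) and the latter without vehicle replicate 2, 3, 4 or 5 or dosed replicate 3 (up to 0.324). Arg1, which splits off urea, passed in none of the dose comparisons. With R2, Cps1, Otc and Ass1 passed, and Asl and Arg1 did not.

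Of 7 genes of glutamine, glutamate and transamination, beside Gls2, 2 fell and 1 rose with R2 and 2 fell at 100 mg/kg/day in study 2. Got1, the cytosolic aspartate aminotransferase, fell with R2 (-1.65 ± 0.27, adjusted p = 1.4e-05) and at 100 mg/kg/day in study 2 (-1.34 ± 0.29, adjusted p = 7.0e-04). Of 6 tryptophan and lysine genes beside Aadat, 3 fell with R2, led by Kynu (-1.46 ± 0.26, adjusted p = 5.4e-05). In study 2 at 100 mg/kg/day, where Aadat did not pass, Kynu fell (-1.14 ± 0.27, adjusted p = 0.00279) and Tdo2, which opens the tryptophan ring, rose (0.81 ± 0.21, adjusted p = 0.00619). Of 7 glyoxylate, glycine and serine genes beside Agxt, 3 fell with R2, with Sds, the serine dehydratase, by the most (-4.18 ± 0.66, adjusted p = 6.6e-06). At 30 mg/kg/day in study 3 Gnmt fell (-2.23 ± 0.31, adjusted p = 6.1e-07) and Dao fell (-1.06 ± 0.27, adjusted p = 0.00462). The 3 other histidine breakdown genes listed beside Hal matched no probe set with a single symbol. Of 8 sulfur amino acid genes, 7 fell with R2, 5 fell and 1 rose at 30 mg/kg/day in study 3, and 4 fell at 100 mg/kg/day after 24 h; Cth, which makes cysteine, was -2.09 ± 0.23 with R2 (adjusted p = 3.7e-09). With R2, 3 of 4 phenylalanine and tyrosine genes, 4 of 10 branched-chain genes and 1 of 3 proline and ornithine genes fell, and 1 branched-chain gene rose. Of 5 amino acid transporters 1 fell and 1 rose with R2, and of 8 regulators of these pathways 1 fell. With R2, 8.79% of all genes were called lower and 6.63% higher. Of 6 genes that respond to amino acid shortage, 5 rose and 0 fell with R2, among them Psat1 (1.99 ± 0.38, adjusted p = 1.2e-04), an enzyme of serine synthesis.

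**Figure D5:**
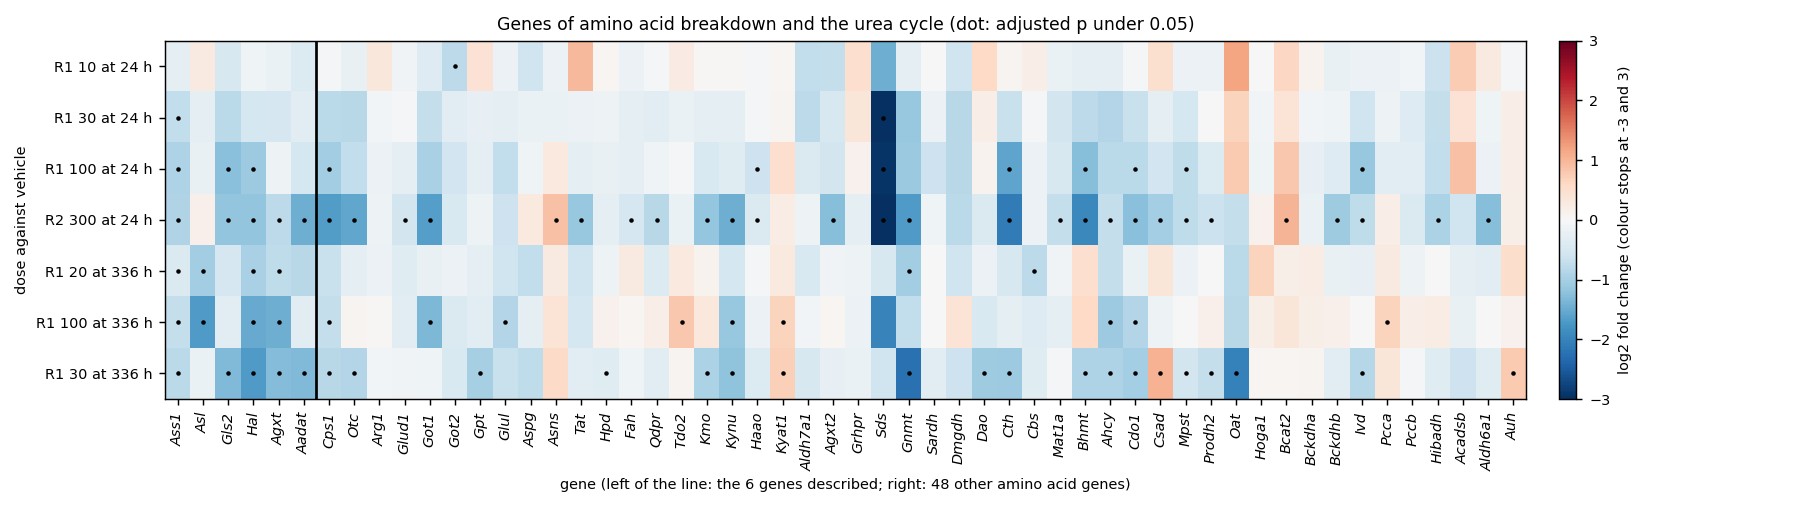
Log2 difference from vehicle (colour, ending at -3 and 3) in the 7 dose comparisons (rows) for the 6 genes and 48 other amino acid genes; dots passed the test. The R2 row has the most dots among the 48 genes, with 25 lower and 2 higher.

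Cell type markers moved with some of these results, and their summed signals are given per study. Counts of markers called are to be read against the shares of all genes given above for the same comparison. For R2 those shares were 8.79% lower and 6.63% higher. With R2, 5 periportal hepatocyte markers that are not among the 6 genes summed to 2947 to 4064 against 5819.7 to 6669 in vehicle livers, and 3 of 5 fell. The 7 perivenous markers summed to 4780.1 to 6978 against 7192 to 9409, and 2 of 7 fell. Both sums lay wholly below vehicle. The 7 general hepatocyte markers summed to 52384 to 56581 against 53294 to 58882, overlapping, and 0 of 7 passed. The 3 bile duct markers summed to 68.6 to 98.9 against 28.6 to 59.7, wholly above vehicle, and 1 of 3 rose.

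In study 3 the hepatocyte markers summed to 50463 to 53118 in vehicle livers and 43069 to 50463 at 30 mg/kg/day. The dosed arrays lay below vehicle, the highest of them only just, and 2 of 7 fell and 1 rose. Periportal markers summed to 4425 to 7509.9 and 3675 to 5368 (2 of 5 fell), overlapping, and perivenous markers to 7399.6 to 11808 and 5177 to 7253 (2 of 7 fell), wholly below vehicle. Red blood cell markers summed to 2735 to 4896 and 1227 to 2501, where 2 of 2 fell. Of 5 tested stellate cell markers 2 fell. Sums over 6 stellate cell markers, 1 of them under the filter, were 255 to 772 and 174 to 288 and overlapped. Bile duct markers summed to 38.6 to 96.4 and 96.2 to 136, overlapping, and 1 of 3 rose.

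In study 2 the hepatocyte sums were 50718 to 56349 in vehicle livers, 43748 to 53836 at 20 and 47153 to 52923 at 100 mg/kg/day, all overlapping; 1 of 7 fell at 20, and 1 fell and 1 rose at 100 mg/kg/day. Periportal sums were 5839.9 to 7565 in vehicle livers. They were 4232 to 5238 at 20 mg/kg/day, wholly below vehicle although 0 of 5 passed. At 100 mg/kg/day they were 2479 to 8036, overlapping vehicle (2 of 5 fell). Perivenous sums were 8090.0 to 10866, 6351 to 7733 (1 of 7 fell) and 4544 to 5926 (3 of 7 fell), wholly below vehicle at both doses. The sums of Kupffer cell, endothelial and stellate cell markers lay wholly below vehicle at both doses too. At 100 mg/kg/day the Kupffer cell sum, over 4 markers, was 469 to 670.0 against 841 to 1346 (2 of 3 tested markers fell). The endothelial sum was 81.7 to 136 against 144 to 182 (1 of 5 fell). The stellate cell sum, over 6 markers, was 285 to 437 against 482 to 716 (0 of 5 tested markers passed). The red blood cell sum at 100 mg/kg/day was 2548 to 5016 against 5174 to 6913, also wholly below vehicle (0 of 2 passed). Bile duct sums were 39.4 to 73.8 in vehicle livers and 78.8 to 169.9 at 100 mg/kg/day, where 1 of 3 rose.

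In study 1 the periportal sum was 5006 to 5458 in vehicle livers. It was 4732 to 5786 at 10, 3235 to 4227 at 30 and 3309 to 3369.8 at 100 mg/kg/day. The arrays at 30 and 100 mg/kg/day lay wholly below vehicle, and 1 of 5 and 2 of 5 markers fell. At 100 mg/kg/day the perivenous sum was 6885 to 7350.3 against 7237 to 7834 (1 of 7 fell), overlapping. The hepatocyte sum there was 53301 to 54171 against 55287 to 57101, wholly below vehicle, and 0 of 7 passed. Cps1, Arg1 and Sds belong to the periportal list and to the amino acid lists, so these counts share genes. No measured marker of these lists was at 0. The part of these shifts in the results above was not tested.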

How the data were processed

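Liver RNA of 44 samples was hybridised to 1-colour rat arrays, and the authors deposited MAS5 intensities, per the submitters' processing notes; the version and scaling are not given in the sources used here. Every array held the same sorted intensities, so the deposited values had been quantile normalized, a step the labels do not state. Of 8799 rows 59 controls were left out. Of the other 8740 probe sets 7006 carried 1 gene symbol, 308 several and 1426 none in GEO's platform table, which can be old, with symbols updated through gene IDs. Values were taken as log2(deposited intensity + 2.89), the 20th percentile, which understates changes of dim probe sets. A probe set was tested where its highest group mean reached the 40th percentile, 9.17 (6361 probe sets, 3696 genes). limma 3.58.1 in R 4.3.3 fitted 1 mean for each of 11 groups (33 residual degrees of freedom) with a mean-variance trend, 2-sided, with Benjamini-Hochberg adjustment over all probe sets within each of 13 comparisons; calls are at an adjusted p under 0.05. The number of arrays limits the precision. The script was tested on simulated data. Tables and plots used Python 3.11.15, pandas 2.3.3, numpy 2.4.6 and matplotlib 3.10.9.

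The 6 genes, all of their probe sets, the gene lists and the markers were chosen with earlier results of these data known. Of the listed genes, the text gives counts and values of up to 4 called genes with the largest change; some lists share genes, such as Cps1 and Sds in the periportal list. For each gene of the 6, the 3 most alike genes are named by Pearson correlation. Alternatives were other offsets, filters, scaling, array weights, a fit without the trend, each study alone, the replicate number as a block, the mean of a gene's probe sets, and each array left out in turn. Leaving out R2 replicates 1 and 2 was added after seeing the data. Of 38 same-numbered array pairs within studies, 4 deviated together with a correlation over 0.1 (from -0.09 to 0.15), so numbers were not taken as pairs.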

Additional observations from a re-analysis of the deposited data

Results flagged for a closer look

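In 3 of 120 groups of 4 or 5 arrays a single array stood apart from the rest by Dixon's criterion, where chance gives about 1 in 20. Hal (M58308_at) read 96.4 in replicate 1 of R1 at 100 mg/kg/day in study 2, against 145 to 153 in the other 3 arrays. In replicate 2 of R1 at 30 mg/kg/day in study 3, the dim Hal probe set AB002393_at read 17.7 against 4.25 to 5.24, and the Agxt probe set D13667cds_s_at read 46.7 against 13.3 to 17.8.

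For 6 probe sets the effect of R1 at 100 mg/kg/day differed between 336 h (study 2) and 24 h (study 1) in limma's test of the difference. For Asl it was -1.49 (D13978_s_at, adjusted p = 5.3e-04) and -1.17 (AB016536_s_at, adjusted p = 0.00918). For Agxt it was -1.32 (X06357cds_s_at, adjusted p = 0.00909), -1.90 (D13667cds_s_at, adjusted p = 0.0239), -1.19 (E01050cds_g_at, adjusted p = 0.0287) and -1.03 (M35270complete_seq_i_at, adjusted p = 0.0192). Duration and study cannot be told apart in these differences.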

How the results depend on the processing

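No fold change of a single probe set or gene that passed the test changed sign under any alternative. Recomputed under settings that kept all arrays or left out R2 replicates 1 and 2 together, single values stayed on their side of the threshold 3664 times, lost a call 146 times and gained a call 35 times. With each array left out in turn these numbers were 3016, 386 and 17. The single values include listed genes that were named because they passed in the main fit. Such values could lose a call but not gain one, so calls lost and gained cannot be set against each other. The number of the 15 probe sets called was 1 in place of 0 with weighted arrays for R1 at 10 mg/kg/day, and 1 in place of 2 without the mean-variance trend and with the replicate block for 30 mg/kg/day at 24 h. For 100 against 20 mg/kg/day it was 2 with study 2 alone and 1 with the replicate block in place of 4. For the effect of 30 mg/kg/day at 336 h against 24 h it was 1 with the higher offset or cyclic loess, and 2 with the stricter filter, weighted arrays or the replicate block, in place of 0. Between the vehicles of studies 3 and 2 it was 9 with the stricter filter and 12 with weighted arrays in place of 5, and between those of studies 4 and 1 it was 2 with weighted arrays in place of 0. The cause was not tested. The replicate block could not be used between studies. With each array left out in turn, the counts ranged from 0 to 0 at 10, 0 to 2 at 30 and 3 to 3 at 100 mg/kg/day after 24 h. They ranged from 3 to 7 at 20 and 10 to 11 at 100 mg/kg/day in study 2, from 10 to 12 at 30 mg/kg/day in study 3 and from 8 to 8 with R2. They ranged from 0 to 2 for 100 against 10 and 0 to 5 for 100 against 20 mg/kg/day, from 3 to 7 and 0 to 2 for the differences of effect at 100 and 30 mg/kg/day, and from 4 to 6 and 0 to 0 between vehicles. The dimmest probe set, AB002393_at of Hal, lay near the filter level, where differences could not be measured well.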
